A study of Mus musculus with 16 samples.

Results

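VSM_3, VSM_5 and VSM_7 are 3 clusters of vascular smooth muscle cells that the authors named in the stromal vascular fraction of mouse brown fat, and they rank 4, 5 and 6 by cell number among the 10 VSM clusters. Cells were taken by the deposited cluster name alone. VSM_3 held 1898 cells, VSM_5 held 1590 and VSM_7 held 1022. Together they made 4510 of the 12372 VSM cells (36.5%), 4510 of the 24352 cells that carry a name (18.5%) and 4.11% of the 109723 cells of the series. The name VSM could not be set against Acta2, Myh11, Tagln and Cnn1, genes of the contractile apparatus of smooth muscle, because gene values were not analysed here, so the clusters are described by their names, numbers, depth and phase calls.

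The series profiled interscapular brown fat of C57BL6J mice by single-cell RNA sequencing to follow the cell composition of the tissue as housing temperature was lowered. Mice were kept thermoneutral at 30 °C, at room temperature at 22 °C, or in the cold at 5 °C for 2 days or for 7 days, with 4 libraries numbered 1 to 4 in each condition. The treatment label gives 1 week for room temperature, and the design text gives 1 week for thermoneutral housing. Floating adipocytes, red blood cells and dead cells were removed before sequencing, and all conditions share these steps. The labels used here give no age and do not say whether the libraries of a condition came from separate animals, so the p-values measure the spread between libraries, which may be technical in part.

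Vascular smooth muscle cells form the contractile layer of arteries, arterioles and veins and set vessel tone. Brown fat is a densely perfused, innervated tissue that makes heat in the cold, and its blood flow rises when it does. The wall of its vessels also holds pericytes and perivascular progenitor cells, and the title of the series names a smooth muscle lineage as a source of new thermogenic adipocytes. A cluster in such data is a group of cells with similar transcriptomes, and neighbouring clusters of one cell type can grade into each other.

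Named cells came from 15 of the 16 libraries. Replicate 1 of 2-day cold held none; its median mitochondrial share over all cells was 29.1%, against 2.47% to 3.70% in the other 2-day libraries. Values over named cells therefore have 3 libraries for 2-day cold and 4 for every other condition. Between 28 and 1118 cells of the 3 clusters came from a library, and 2 of their 4508 barcodes occurred in a pair of libraries. Only 9 of the 4510 cells (0.2%) had at least 20% mitochondrial UMIs (unique molecular identifiers, which count transcript molecules).

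The 3 clusters took different places when the same cells were clustered more coarsely. The names follow the numbers of the authors' clustering of the named cells at resolution 1.2, where each is a whole cluster. At resolution 0.4, all of VSM_3 lay in 1 coarse cluster, of which it made 77.7%, with 23.1% of VSM_2 as its main partner. VSM_5 did not stand alone: 89.7% of its cells fell into a coarse cluster with VSM_1 and VSM_2, of which VSM_5 made 25.2%. VSM_7 was divided, with 72.4% of its cells beside VSM_0, VSM_22 and VSM_27 and 27.6% in the coarse cluster that held VSM_5. At resolution 0.1 the 3 clusters were in a single cluster.

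The authors' second clustering, of all cells at resolution 1.8, gave the same order. Of the VSM_3 cells 97.3% lay in 1 cluster, number 9, and 59.8% of the named cells there were VSM_3. VSM_5 cells were 79.2% in cluster 4 and 16.6% in cluster 10, and they were 23.8% of the named cells of cluster 4. VSM_7 cells were 64.9% in cluster 10, 15.1% in cluster 39 and 13.3% in cluster 4, and they were 22.2% of the named cells of cluster 10. At these resolutions VSM_3 was thus found again as a unit in both clusterings, while VSM_5 and VSM_7 were smaller fractions of wider groups. The contrast did not hold when the named cells were clustered more finely, at resolution 1.8. There VSM_3 was divided, with 77.0%, 13.9% and 8.11% of its cells in separate clusters, and it made 99.7% of the first. VSM_5 had 84.3% of its cells in a cluster of which it made 91.6%. VSM_7 had 69.6% and 27.5% in separate clusters and made 98.3% of the first.

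The 3 clusters also differed in depth, always in the same order. Median UMIs per cell were 13126 in VSM_3, 8276.5 in VSM_5 and 6357.5 in VSM_7, and median genes detected were 3278, 2596.5 and 2232.5. VSM_3 had the highest medians of the 10 VSM clusters in both measures, VSM_5 ranked 4 and VSM_7 ranked 8. Within libraries that held at least 20 cells of both clusters, VSM_3 had more UMIs than VSM_5 in 11 of 11, by a median ratio of 1.62 (1.28 to 1.79). VSM_3 exceeded VSM_7 in 11 of 11 libraries, by a median ratio of 1.93 (1.73 to 2.38). VSM_5 exceeded VSM_7 in 10 of 10, by a median ratio of 1.21 (1.12 to 1.47). The lines of the plot of depth within libraries fall from VSM_3 to VSM_7 without exception. No test was made of these differences, since the clusters were built from the transcripts of the same cells. Doublets were not called, because gene values were not analysed here.

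**Figure D1:**
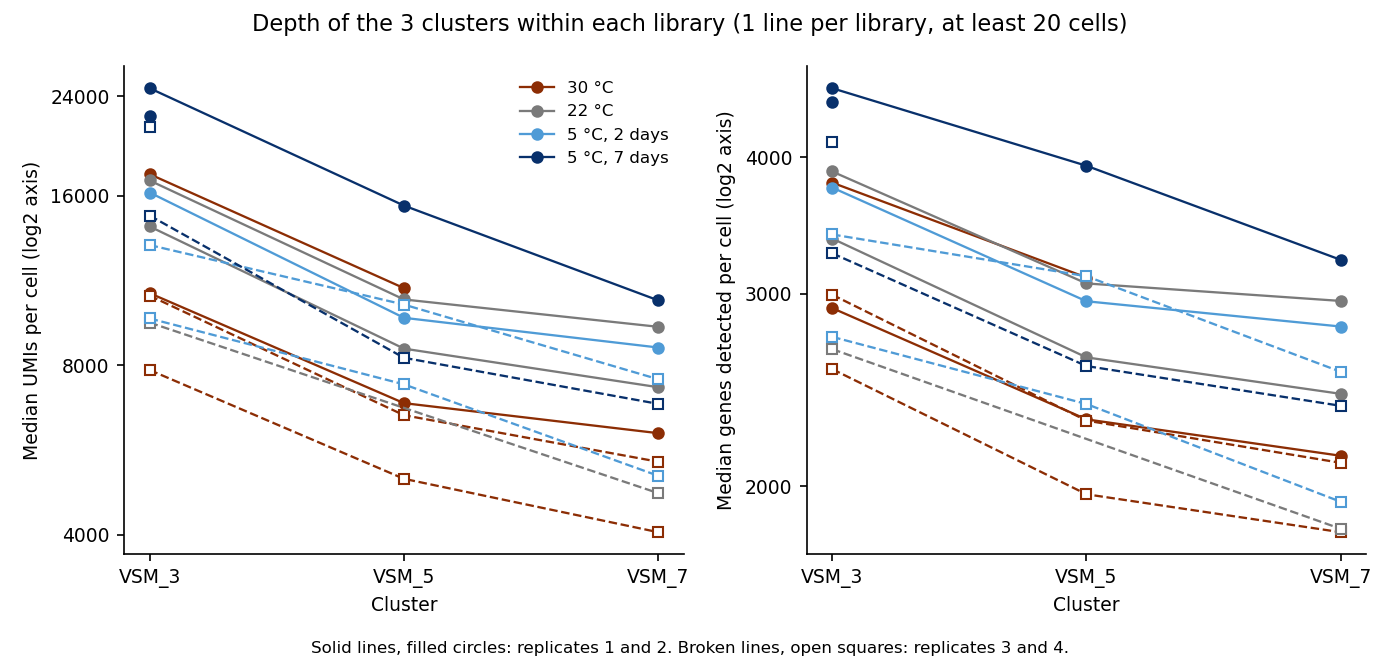
Median UMIs per cell (left) and median genes detected per cell (right), each on a log2 axis, for VSM_3, VSM_5 and VSM_7, with 1 line per library coloured by housing and only points from at least 20 cells. Every line falls from left to right, and 3 of the 4 7-day cold libraries hold the highest VSM_3 values, 21165.5 to 24823 UMIs.

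The mitochondrial share separated the 3 clusters little. Its median over cells was 7.75% in VSM_3, 6.66% in VSM_5 and 7.01% in VSM_7, ranks 6, 8 and 7 of the 10 VSM clusters. In single libraries VSM_3 was above VSM_5 in 9 of 11 and above VSM_7 in 8 of 11, with median differences of 0.348 and 0.466 percentage points. The authors' complexity ratio, log10 genes over log10 UMIs, was lowest in VSM_3 (median 0.853), with 0.871 in VSM_5 and 0.880 in VSM_7, and in no library was VSM_3 above either of the others. VSM_3 was the deepest of the 10 VSM clusters, with the most genes detected, and had the lowest value of this ratio. VSM_21, with the fewest UMIs and genes, had the highest. The ratio was not compared at equal depth.

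Housing was first read on the share of each library's named cells. VSM_3 made 9.17%, 6.93%, 6.35% and 9.43% of the named cells of thermoneutral replicates 1 to 4. At room temperature it made 11.5%, 12.3%, 4.76% and 4.20%. After 2 days in the cold it made 6.14%, 6.65% and 4.57% in replicates 2 to 4, and after 7 days 5.99%, 3.84%, 7.36% and 5.53% in replicates 1 to 4. The room temperature libraries were the most spread, with the highest and the second lowest shares of all 15, and the ranges of the 4 conditions overlapped. Mean shares were 7.97% ± 1.56 (SD, n = 4) thermoneutral, 8.17% ± 4.28 (n = 4) at room temperature, 5.79% ± 1.08 (n = 3) after 2 days and 5.68% ± 1.45 (n = 4) after 7 days.

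VSM_5 varied far more between libraries of 1 condition. Thermoneutral replicates 1 to 4 held 13.1%, 7.87%, 1.95% and 1.68%, and room temperature replicates held 6.60%, 14.5%, 0.838% and 0%. The library with none, room temperature replicate 4, had 357 named cells, which allows a share of up to 0.840%. The 2-day libraries held 9.07%, 1.30% and 3.68%, and the 7-day libraries 1.15%, 4.12%, 5.56% and 0.851%. High and low shares thus occurred side by side in each condition, and the SD came close to the mean or passed it, from 6.14% ± 5.42 (n = 4) thermoneutral and 5.48% ± 6.67 (n = 4) at room temperature to 4.68% ± 3.98 (n = 3) after 2 days and 2.92% ± 2.30 (n = 4) after 7 days.

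VSM_7 made 7.68%, 3.37%, 2.81% and 3.52% of named cells in thermoneutral replicates 1 to 4, and 3.75%, 5.04%, 5.18% and 3.64% at room temperature. It made 3.80%, 1.56% and 2.97% after 2 days and 2.04%, 1.97%, 5.24% and 1.28% after 7 days. In the 7-day group 3 libraries were lower than every thermoneutral and room temperature library, and replicate 3 was above all of them but thermoneutral replicate 1. Means were 4.35% ± 2.24 (n = 4), 4.4% ± 0.821 (n = 4), 2.78% ± 1.13 (n = 3) and 2.63% ± 1.77 (n = 4), in the same order of conditions.

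**Figure D2:**
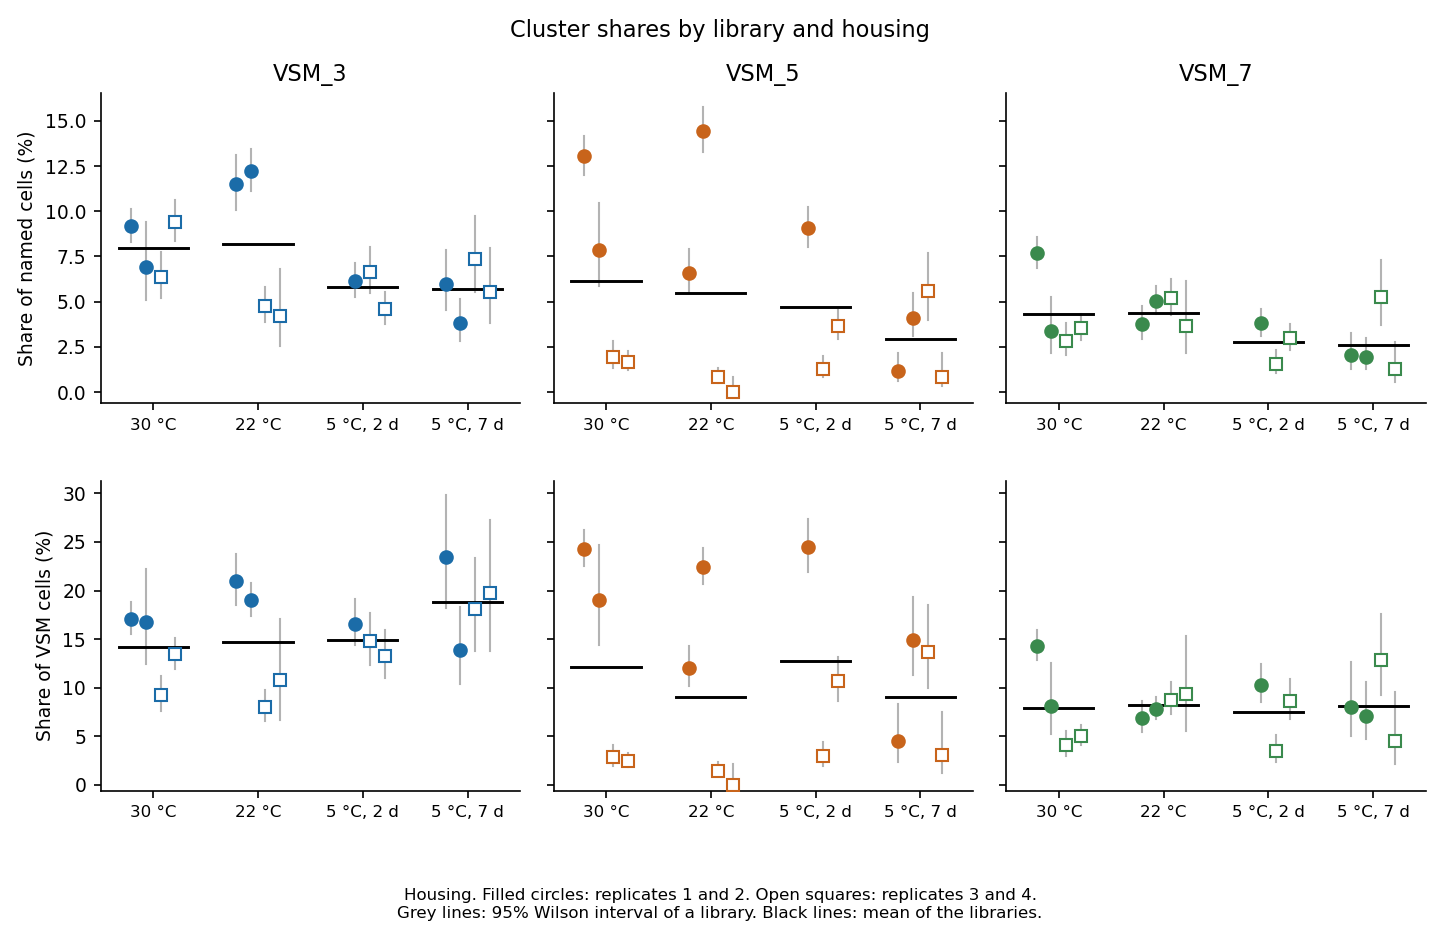
Share of named cells (top, %) and share of VSM cells (bottom, %) in VSM_3, VSM_5 and VSM_7 by housing, with 1 point per library, its 95% Wilson interval in grey and the mean of the libraries as a black line. In the VSM_5 panels the filled circles of replicates 1 and 2 lie mostly above the open squares of replicates 3 and 4.

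None of the 3 clusters passed the main test for a change in its share of named cells with housing. Differences are log2 odds ratios ± standard error from limma, where 1 means a doubling of the odds that a named cell belongs to the cluster, and adjusted p-values are Benjamini-Hochberg over 27 named clusters. After 7 days in the cold against thermoneutral housing the estimate was -0.53 ± 0.45 for VSM_3 (adjusted p = 0.314), -0.97 ± 1.28 for VSM_5 (adjusted p = 0.539) and -0.80 ± 0.50 for VSM_7 (adjusted p = 0.172). The test passed 37% of the 27 clusters in that comparison, and 0 of 3 members did; 0 of 3 had an unadjusted p under 0.05 or passed with edgeR. With centred log ratios VSM_7 did pass (-1.51, limma, adjusted p = 0.0223). Among cells of at least 7085 UMIs, the median of named cells, VSM_5 and VSM_7 had the other sign (0.17 and 1.32, adjusted p = 0.904 and 0.185). After 2 days the estimates were -0.49 ± 0.48, -0.31 ± 1.38 and -0.64 ± 0.54 (adjusted p from 0.424 to 0.827, background 11.1%), and at room temperature -0.10 ± 0.45, -1.24 ± 1.28 and 0.12 ± 0.50 (adjusted p from 0.671 to 0.897, background 0%). In these comparisons too, 0 of 3 reached an unadjusted p under 0.05, and 0 of 3 passed with edgeR. The standard errors, above all that of VSM_5, leave room for changes of several-fold, so these values do not show that the shares were equal.

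The 7-day estimates were also taken within replicates 1 and 2 and within replicates 3 and 4, since depth in the series differs between them. For VSM_3 they were -0.78 and -0.29, for VSM_7 -1.38 and -0.23, and for VSM_5 -2.3 and 0.36. The 2-day estimates were -0.41 and -0.52 for VSM_3, -0.19 and 0.29 for VSM_5, and -0.46 and -0.55 for VSM_7. The first of each pair has replicate 2 as its only 2-day library. At room temperature they were 0.63 and -0.82, -0.05 and -2.42, and -0.26 and 0.50. VSM_5 had no common direction between the sets after 2 or 7 days, and VSM_3 and VSM_7 had none at room temperature. In the remaining comparisons, between 7-day cold and room temperature, between the cold groups and between 2-day cold and room temperature, adjusted p-values of the 3 clusters were 0.164 to 0.870, 0.876 to 0.977 and 0.383 to 0.688.

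Among VSM cells alone none of the 3 clusters passed the test after 7 days either. VSM_3 was 14.1% ± 3.66 (n = 4) of VSM cells in thermoneutral libraries and 18.8% ± 4.00 (n = 4) in 7-day cold, VSM_5 was 12.1% ± 11.2 and 9.01% ± 6.11, and VSM_7 was 7.89% ± 4.61 and 8.12% ± 3.48. The limma estimates were 0.51 ± 0.40, -0.05 ± 1.31 and 0.15 ± 0.49 (adjusted p = 0.367, 0.970 and 0.948 over 10 VSM clusters, of which 10% passed), and 0 of 3 passed, 0 of 3 had an unadjusted p under 0.05 and 0 of 3 passed with edgeR. Taken within replicates 1 and 2 and then within replicates 3 and 4, they were 0.13 and 0.90 for VSM_3, -1.56 and 1.46 for VSM_5 and -0.56 and 0.87 for VSM_7. Without single libraries the VSM_5 estimate ran from -0.65 to 0.58 and that of VSM_7 from -0.12 to 0.53, so both crossed 0.

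Whether any of the 3 clusters moved against another was tested on the ratio of their cell numbers in a library. Over 3 pairs and 6 pairs of conditions, the lowest of 18 exact two-sided permutation p-values was 0.4 and the lowest adjusted value 0.857, with 0 below 0.05. The smallest p that 4 libraries against 4 or 3 can reach is 0.0286. After adjustment over the 18 tests a single comparison at that value could not pass, so the adjusted values cannot decide whether 1 pair moved. VSM_3 cells outnumbered VSM_7 cells in 14 of 15 libraries, with a median ratio of 2.06, but outnumbered VSM_5 cells in only 10 of 15, with a ratio that ran from 0.677 to 6.50 where VSM_5 was present.

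The spread of VSM_5 followed the replicate number. Its share of named cells had a median of 7.87% (1.15% to 14.5%) in the 7 libraries numbered 1 or 2 and of 1.49% (0% to 5.56%) in the 8 libraries numbered 3 or 4. With housing in the fit, replicates 3 and 4 differed from replicates 1 and 2 by -2.44 ± 0.72 on the log2 odds scale (limma, adjusted p = 0.0246 over 27 clusters), while VSM_3 differed by -0.33 ± 0.31 (adjusted p = 0.478) and VSM_7 by -0.23 ± 0.36 (adjusted p = 0.595). In that fit 18.5% of the 27 clusters passed, 11.1% of them lower in replicates 3 and 4. The VSM_5 call was lost without thermoneutral replicate 1 (-2.34, adjusted p = 0.0523), room temperature replicate 1 (-2.31, adjusted p = 0.0609) or 2 (-2.06, adjusted p = 0.0593), or 2-day replicate 2 (-2.51, adjusted p = 0.0531). As a share of VSM cells the difference was -2.74 ± 0.63 (adjusted p = 0.00392 over 10 clusters, of which 30% passed), and it passed without any 1 library, at -3.2 to -2.33. The 7-day libraries did not follow it, with 1.15% and 4.12% in replicates 1 and 2 and 5.56% and 0.851% in replicates 3 and 4. No label calls the numbers a batch, and what differed between the sets of libraries was not tested.

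VSM_1, which shares the coarse cluster of VSM_5, had the opposite pattern; it was singled out after its values were seen. VSM_1 made 2.57% of named cells in the median library of replicates 1 and 2 (1.59% to 8.80%) and 10.0% in replicates 3 and 4 (1.8% to 26.2%), a difference of 1.71 ± 0.41 (limma, adjusted p = 0.00901). The opposite pattern was not particular to VSM_1: VSM_27, with 98.3% of its cells in another coarse cluster, differed by 2.27 ± 0.54 (limma, adjusted p = 0.00901). VSM_2, which also shares the coarse cluster of VSM_5, differed by -0.31 ± 0.38 (limma, adjusted p = 0.533). Of the cells named VSM_5 or VSM_1, a median of 67.1% (34.6% to 83.6%) were VSM_5 in replicates 1 and 2 and 9.02% (0% to 75.6%) in replicates 3 and 4. Both names together made a median of 12.9% (3.32% to 21.5%) and 10.7% (7.36% to 28.1%) of named cells. These medians pool the conditions. Within a condition the combined share of the sets overlapped only at room temperature, and the share of either name only after 7 days. In thermoneutral housing the combined share was 15.6% and 12.9% in replicates 1 and 2, and 28.1% and 24.6% in replicates 3 and 4. After 7 days it was 3.32% and 5.71%, and 7.36% and 7.66%. After 2 days it was 11.2% in replicate 2, and 10.2% and 10.0% in replicates 3 and 4. A difference in the combined share was not tested.

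Cluster 4 of all cells, which holds most of VSM_5, did not pass the test for a difference between the replicate sets. Its share of all cells differed by 0.17 ± 0.48 (limma, adjusted p = 0.874 over 55 clusters, of which 23.6% passed), which does not show that its shares were equal. Cluster 9, which holds VSM_3, differed by -1.13 ± 0.51 and cluster 10 by -0.72 ± 0.50, with adjusted p-values of 0.137 and 0.324. The contrast between VSM_5 and cluster 4 was not tested, as the clusterings have different denominators.

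The clusters of all cells could be followed in all 16 libraries, with every cell of a library as denominator. Cluster 9 made 5.77%, 4.26%, 1.77% and 7.34% of the cells of thermoneutral replicates 1 to 4 and 0.965%, 2.24%, 0.665% and 2.10% after 7 days. Cluster 4 made 7.04%, 5.19%, 6.21% and 15.7% in thermoneutral libraries and 0.775%, 2.44%, 1.13% and 3.60% after 7 days. Cluster 10 made 6.74%, 2.92%, 2.29% and 5.73% and then 0.557%, 2.24%, 0.747% and 1.83%. For clusters 4 and 10 every 7-day library was below every thermoneutral one, as in 5.45% of the 55 clusters, and for cluster 9 thermoneutral replicate 3 lay among the cold libraries. Mean shares after 2 days were 2.09% ± 0.933 (n = 4) for cluster 9, 2.99% ± 1.29 (n = 4) for cluster 4 and 1.94% ± 0.615 (n = 4) for cluster 10, and at room temperature 5.53% ± 5.18, 8.75% ± 4.47 and 4.77% ± 3.5 (n = 4 each).

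**Figure D3:**
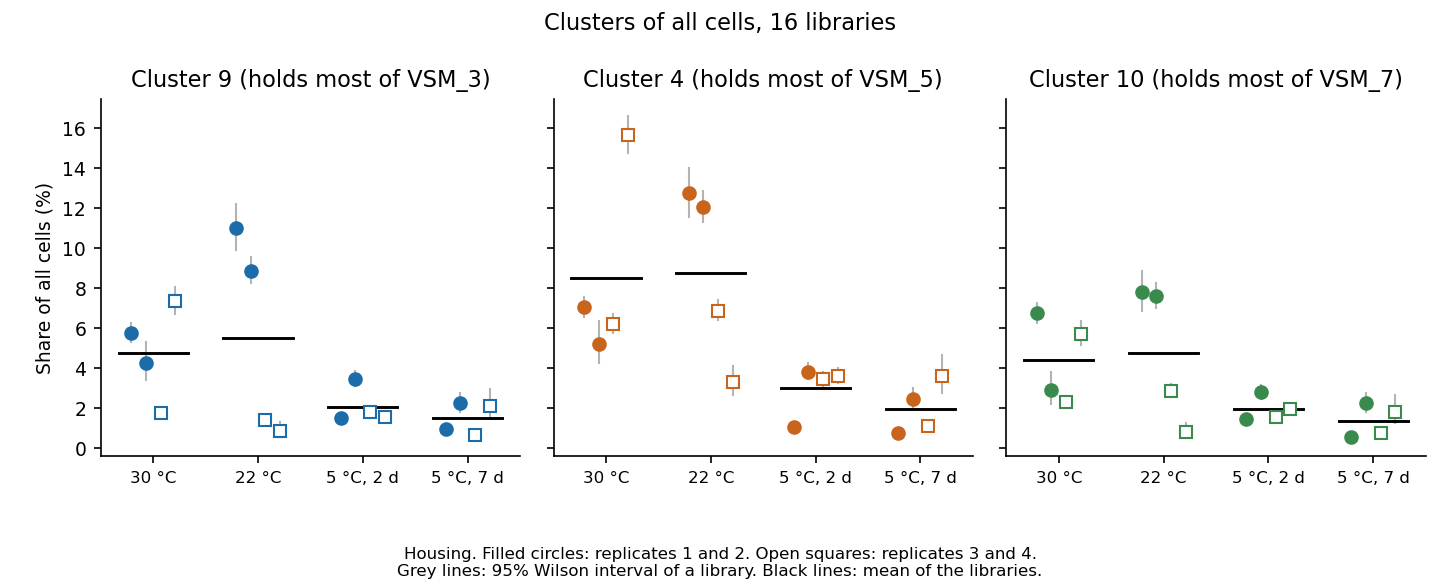
Share of all cells (%) in clusters 9, 4 and 10 of the clustering of all cells by housing, with 1 point for each of the 16 libraries, its 95% Wilson interval in grey and the mean of the libraries as a black line. For clusters 4 and 10 the 7-day libraries lie below the thermoneutral ones, and for all 3 the room temperature libraries span the widest or nearly the widest range.

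These lower shares did not pass the test over 55 clusters. From thermoneutral housing to 7 days of cold the estimates were -1.72 ± 0.83 for cluster 9, -2.31 ± 0.69 for cluster 4 and -1.84 ± 0.75 for cluster 10 (limma, adjusted p = 0.232, 0.110 and 0.227), and 0% of the clusters passed in that comparison, while 8 of 55, among them 2 of these 3, had an unadjusted p under 0.05. Replicates 1 and 2 alone gave -1.8, -2.2 and -2.03, and replicates 3 and 4 alone gave -1.64, -2.41 and -1.65. After 2 days they were -1.15 ± 0.83, -1.61 ± 0.69 and -1.14 ± 0.75 (adjusted p = 0.548, 0.251 and 0.504, background 9.09%), and without 2-day replicate 1 they were -1.02, -1.17 and -1.01. The values within the sets of replicates were -1.16 and -1.14 for cluster 9, -1.63 and -1.60 for cluster 4, and -1.19 and -1.08 for cluster 10. From room temperature to 7 days they were -1.37 ± 0.83, -2.30 ± 0.69 and -1.62 ± 0.75 (adjusted p = 0.516, 0.218 and 0.243, background 0%), and 10 of 55 clusters, among them 2 of these 3, had an unadjusted p under 0.05. The room temperature comparison was not alike in both sets: replicates 1 and 2 gave -2.87, -3.33 and -2.87, and replicates 3 and 4 gave 0.13, -1.28 and -0.38. A lower share of all cells can come from fewer of these cells or from more of others, and the shares cannot tell these apart.

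Depth of the 3 clusters was higher after 7 days in the cold in most libraries. Median UMIs of VSM_3 cells were 10739, 17468, 7843.5 and 10630 in thermoneutral replicates 1 to 4 and 22189, 24823, 14748 and 21165.5 in 7-day cold. VSM_5 had 10962 UMIs or fewer in thermoneutral libraries and 15362.5 and 8246 in the 7-day replicates 2 and 3, the only ones with 20 cells. VSM_7 had 4042 to 6059 in thermoneutral replicates 1, 3 and 4 and 10427 and 6830 in 7-day replicates 2 and 3. The groups overlapped for VSM_3 and VSM_5. For VSM_7 they did not, as in 8.33% of the 12 clusters tested, but thermoneutral replicate 2, left out with 18 VSM_7 cells, had a median of 8895 UMIs and would have overlapped.

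On the log2 scale the 7-day difference in UMIs was 0.86 ± 0.35 for VSM_3 (limma, adjusted p = 0.0919 over 12 clusters), 0.68 ± 0.43 for VSM_5 (adjusted p = 0.2) and 0.73 ± 0.45 for VSM_7 (adjusted p = 0.2), so 0 of 3 passed. Of the 12 clusters 8.33% passed, with lower UMIs, and 1 of 3 had an unadjusted p under 0.05. VSM_3 passed without thermoneutral replicate 2 (1.08, adjusted p = 0.0235) or 7-day replicate 3 (1.02, adjusted p = 0.0485), and with the sets of replicates as a covariate (0.86, adjusted p = 0.00700). In replicates 1 and 2 the estimates were 0.78, 0.83 and 0.78, and in replicates 3 and 4 they were 0.95, 0.53 and 0.55. For VSM_5 and VSM_7 the only 7-day library in these sets was replicate 2 and replicate 3, respectively, here and in the measures below. Replicates 3 and 4 had lower UMIs than replicates 1 and 2 in all 3 clusters, by -0.54 ± 0.19, -0.53 ± 0.25 and -0.56 ± 0.23 (adjusted p = 0.0146, 0.0497 and 0.0250, where 75% of 12 clusters passed). Genes detected had estimates of 0.43 ± 0.24, 0.42 ± 0.29 and 0.46 ± 0.31 (adjusted p = 0.169, 0.236 and 0.236, background 8.33%, 0 of 3 with an unadjusted p under 0.05). By set of replicates these were 0.46, 0.56 and 0.60, and 0.41, 0.28 and 0.28. The mitochondrial share had estimates of 0.26 ± 0.18, 0.28 ± 0.23 and 0.27 ± 0.27 (adjusted p = 0.308, 0.314 and 0.386, background 8.33%, 0 of 3 with an unadjusted p under 0.05). Its estimates within the sets of replicates were 0.50, 0.47 and 0.63, and 0.02, 0.10 and 0.07.

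The last measure was the cell cycle phase that the authors called for each cell from scores of S and G2M genes. In the table of named cells, 39.3% of VSM_3, 57.7% of VSM_5 and 65.1% of VSM_7 cells were called S or G2M, ranks 9, 7 and 1 of the 10 VSM clusters. In single libraries VSM_3 was below both others in 11 of 11, by a median of 20.9 percentage points from VSM_5 and 21.5 from VSM_7. VSM_5 was above VSM_7 in 2 of 10. The highest G2M score was 0.0705 in VSM_3, 0.0960 in VSM_5 and 0.178 in VSM_7, the highest S score was 0.353, 0.145 and 0.259, and medians were below 0 for both scores in all 3.

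The calls depended on the table. In the table of all cells 2.11% of the same VSM_3 cells, 4.97% of VSM_5 and 10.5% of VSM_7 were called S or G2M, and the call was the same for 62.9%, 47.0% and 45.4% of cells. The order of the 3 clusters was kept while the level was not. Cells could not be thinned to 1 number of UMIs without gene values, and the order of the calls runs against the order of depth, so no cycling is read from them.

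Within each cluster the called share was lower in 7-day cold. VSM_3 had 38.5%, 35.1%, 42.0% and 44.8% of cells called S or G2M in thermoneutral replicates 1 to 4 and 25.5%, 7.32%, 28.9% and 19.2% in 7-day cold. VSM_5 had 59.8%, 54.8%, 63.0% and 74.4% in thermoneutral libraries and 29.5% and 47.1% in 7-day replicates 2 and 3. VSM_7 had 70.4%, 76.9% and 72.2% in thermoneutral replicates 1, 3 and 4 and 38.1% and 50.0% in 7-day replicates 2 and 3. In each cluster no 7-day library of at least 20 cells reached the lowest thermoneutral one, which held for 58.3% of the 12 clusters tested.

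**Figure D4:**
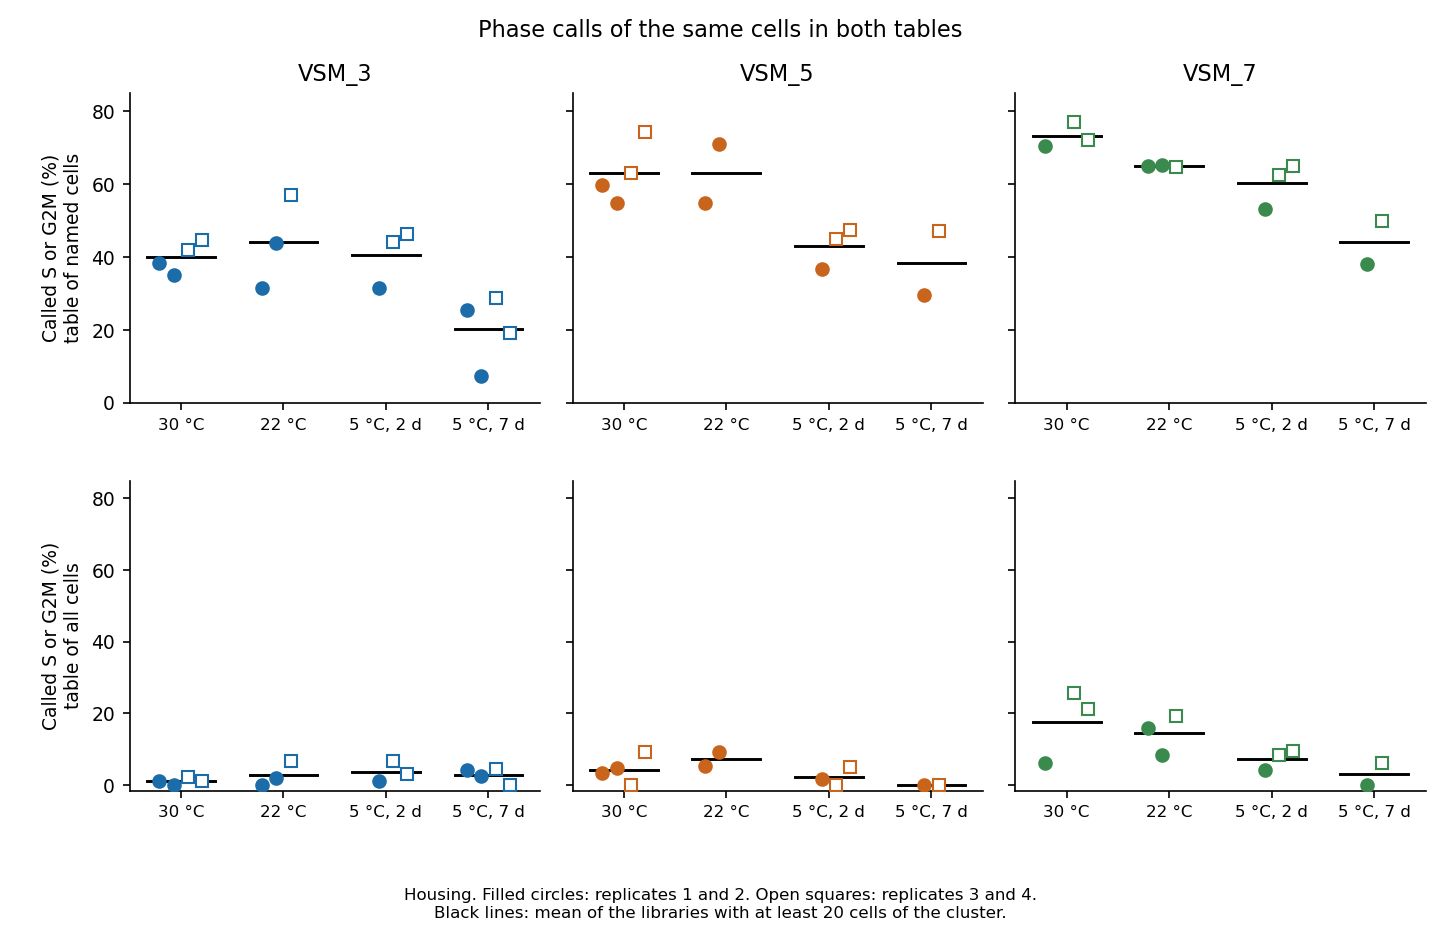
Share of cells called S or G2M (%) in VSM_3, VSM_5 and VSM_7 by housing, from the phase calls of the table of named cells (top) and of the table of all cells (bottom), with 1 point per library of at least 20 cells and the mean as a black line. In the top row the 7-day points lie below the thermoneutral ones in each cluster, and in the bottom row, where VSM_3 stays between 0% and 6.86%, the VSM_3 points do not. There the 7-day VSM_5 points are at 0%, level with thermoneutral replicate 3. The highest 7-day VSM_7 point is at 6.25%, beside a lowest thermoneutral one at 6.27%.

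The log2 odds ratios of a call, 7-day cold against thermoneutral, were -1.48 ± 0.42 for VSM_3 (limma, adjusted p = 0.00364 over 12 clusters), -1.46 ± 0.46 for VSM_5 (adjusted p = 0.00698) and -1.76 ± 0.42 for VSM_7 (adjusted p = 0.00129). All 3 passed, in a comparison in which 66.7% of the 12 clusters tested passed as lower and 75% in either direction, with a median of -1.47 over all 12. The 3 estimates lie near that median. In replicates 1 and 2 alone the estimates were -1.72, -1.64 and -1.91, and within replicates 3 and 4 they were -1.24, -1.28 and -1.52. For VSM_5 and VSM_7 the only 7-day library in these sets was replicate 2 and replicate 3, respectively. The VSM_5 call rests on 7-day replicate 2: without it the estimate was -0.93 (adjusted p = 0.158), with 1 library left in the 7-day arm that is assumed to vary like the other groups.

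Against room temperature the 7-day estimates were -1.70 ± 0.46, -1.48 ± 0.54 and -1.21 ± 0.42 (limma, adjusted p = 0.00415, 0.0196 and 0.0184), all passing, with 58.3% of 12 clusters lower. Replicates 1 and 2 alone gave -1.75, -2.01 and -1.56, and replicates 3 and 4 alone -2.03 for VSM_3 and -0.86 for VSM_7, with no room temperature library of VSM_5 there. As above, the VSM_5 and VSM_7 values have only 7-day replicate 2 or replicate 3 behind them. In replicates 3 and 4 the only room temperature library was replicate 3. Without room temperature replicate 2 the call was lost for VSM_5 (-0.98, adjusted p = 0.275) and VSM_7 (-1.21, adjusted p = 0.0551), and without 7-day replicate 2 likewise (-0.95 and -0.88, adjusted p = 0.226 and 0.219). In these fits the arm of the omitted library had 1 library left, assumed to vary like the other groups, except the room temperature arm of VSM_7. Among cells of 5000 to 15000 UMIs the calls of VSM_5 (-1.13, adjusted p = 0.169) and VSM_7 (-1.04, adjusted p = 0.0793) were lost, and among cells of 10000 to 25000 UMIs that of VSM_5 (-1.29, adjusted p = 0.11). VSM_3 kept its call among cells of 10000 to 25000 UMIs (-1.35 ± 0.55, adjusted p = 0.0309, where 3 of 5 clusters passed). With the phase calls of the table of all cells VSM_7 did not pass (-1.92, adjusted p = 0.0838), and VSM_3 had the other sign (1.22, adjusted p = 0.205). Against 2-day cold VSM_3 passed, at -1.5 ± 0.46 (adjusted p = 0.00915), with 50% of 12 clusters lower, and lost the call without 2-day replicate 4 (-1.33, adjusted p = 0.0577). VSM_5 was at -0.29 ± 0.49 (adjusted p = 0.668) and VSM_7 at -0.92 ± 0.42 (adjusted p = 0.0702); VSM_7 passed without 2-day replicate 2 (-1.13, adjusted p = 0.0321) or 7-day replicate 3 (-1.26, adjusted p = 0.0385), the latter with 1 7-day library left and its spread assumed as above. With the replicate sets as a covariate it passed too (-0.86, adjusted p = 0.0374). Within replicates 1 and 2 these were -1.38, -0.44 and -0.85, and within replicates 3 and 4 -1.35, 0.05 and -0.79. The former have replicate 2 as their only 2-day library, and the VSM_5 and VSM_7 values are limited to 7-day replicates 2 and 3 as above.

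After 2 days the called share of VSM_3 was 40.7% ± 7.96 (n = 3), close to the thermoneutral mean of 40.1% ± 4.21 (n = 4), with an estimate of 0.02 ± 0.46 (limma, adjusted p = 0.997). VSM_5 was at 43.0% ± 5.64 (n = 3) against 63.0% ± 8.33 (n = 4), an estimate of -1.17 ± 0.41 (adjusted p = 0.0599), and VSM_7 at 60.2% ± 6.29 (n = 3) against 73.2% ± 3.37 (n = 3), an estimate of -0.84 ± 0.38 (adjusted p = 0.114). None of the 12 clusters (0%) passed here, and 4 of 12 clusters, among them 2 of the 3, had an unadjusted p under 0.05. With the replicate sets as a covariate VSM_5 (-1.3, adjusted p = 0.0127) and VSM_7 (-0.84, adjusted p = 0.0412) passed, with 41.7% of the 12 clusters. In G2M calls alone VSM_5 (-1.48, adjusted p = 0.0273) and VSM_7 (-1.33, adjusted p = 0.0434) passed, with 33.3% of the 12 clusters lower. Within replicates 1 and 2 the estimates were -0.34, -1.21 and -1.07, with replicate 2 as the only 2-day library. Within replicates 3 and 4 they were 0.11, -1.33 and -0.73. Whether the 2-day difference varies between the 3 clusters was not tested.

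In VSM_5 the 7-day difference passed in G2M calls and not in S calls. Cells called G2M were 29.4% ± 5.75 (n = 4) of VSM_5 in thermoneutral libraries, 33.1% ± 0.902 (n = 2) at room temperature, 13.2% ± 7.35 (n = 3) after 2 days and 0% and 2.94% in the 7-day libraries, where 0 of 44 cells, which allows a share of up to 6.82%, and 1 of 34 cells had the call. The 7-day estimate for G2M calls alone was -4.23 ± 0.55 (limma, adjusted p = 9.32e-08), and for S calls alone 0.20 ± 0.47 (adjusted p = 0.741). In VSM_3 G2M calls fell from 19.5% ± 1.81 to 4.63% ± 3.36 (n = 4 each), an estimate of -2.34 ± 0.49 (adjusted p = 8.26e-05), with -0.51 ± 0.43 for S calls (adjusted p = 0.418). In VSM_7 G2M calls were 31.7% ± 1.43 (n = 3) and 15.0% ± 0.947 (n = 2), an estimate of -1.27 ± 0.58 (adjusted p = 0.0526). Of the 12 clusters 58.3% passed as lower in G2M calls and 16.7% in S calls. The counts behind the 7-day values are small. In VSM_5 the size of the 7-day estimates for G2M calls, and so their p-values, depend on the 0.5 added to each count. Their standard errors come from the spread between libraries and do not model counting error near 0.

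Depth moved with these calls: estimates of UMIs per cell were above 0 in 7-day cold, and VSM_3, the deepest of the 3, had the fewest calls. Its part in the result was not tested beyond bands of UMIs. Among cells of 10000 to 25000 UMIs VSM_3 was still lower after 7 days than in thermoneutral housing. Its estimate was -1.32 ± 0.55 (limma, adjusted p = 0.0342, where 80% of 5 clusters passed). Among cells of 5000 to 15000 UMIs VSM_7 was lower (-1.56 ± 0.45, adjusted p = 0.00755, where 57.1% of 7 clusters passed), and VSM_5 was at -0.71 ± 0.55 (adjusted p = 0.25). With the phase calls of the table of all cells none of the 12 clusters (0%) passed from thermoneutral housing to 7 days, with 3 at an unadjusted p under 0.05; VSM_5 was at -1.85 ± 0.75 and VSM_7 at -2.11 ± 0.82 (adjusted p = 0.0865 for both), while VSM_3 had the other sign, at 1.22 ± 0.74 (adjusted p = 0.276). From room temperature to 7 days VSM_5 passed with these calls (-2.64 ± 0.87, adjusted p = 0.0341, where 16.7% of 12 clusters passed). They put 0% of VSM_5 cells in S or G2M in 7-day replicates 2 and 3, which held 44 and 34 cells. Room temperature replicates 1 and 2 had 5.41% and 9.21%. The size of the VSM_5 estimates from these calls, and so their p-values, therefore depend on the 0.5 added to each count.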

How the data were processed

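Per-cell annotations of 16 mouse single-cell libraries were used, in a table of all cells and a table of named cells. STAR and Cell Ranger 3.0.1 with mm10 are given in the submitters' processing notes; how cells were filtered, scored and clustered was not given in the sources used here. UMI and gene counts per cell, the mitochondrial fraction, the complexity ratio (log10 genes over log10 UMIs), and S and G2M scores with phase calls and cluster names were deposited by the authors and used unchanged. Without gene values, which were not analysed here, no marker check, doublet call or thinning of cells was made.

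Cells were counted per cluster and library, with the library as replicate. Shares, with 0.5 cells added to cluster and rest, became log2 odds, and limma 3.58.1 (R 4.3.3) fitted them over every cluster averaging 10 or more cells a library: 27 of the 28 named clusters, 10 VSM clusters or 55 clusters of all cells, with 4 conditions in 1 fit. Phase shares (log2 odds), log2 median UMIs, log2 median genes and log2 median mitochondrial percent plus 0.1 were fitted from libraries with at least 20 cells of a cluster, in clusters with at least 2 such libraries per condition, a rule set after the files were seen; 12 clusters were left. Libraries of VSM_3, VSM_5 or VSM_7 under 20 cells were dropped from these fits: room temperature replicate 4 (all 3) and 3 (VSM_5), 7-day replicates 1 and 4 (VSM_5, VSM_7) and thermoneutral replicate 2 (VSM_7). Tests were two-sided, with Benjamini-Hochberg adjustment within a contrast and a threshold of 0.05. Ratios between clusters were compared with exact permutation tests. Intervals of single shares are 95% Wilson intervals, and beside a share of 0 stands the share of 3 cells; both cover counting error only. Libraries held 1473 to 10005 cells, of which 357 to 3739 were named in the 15 libraries with named cells.

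No pair of libraries of 1 condition agreed within sampling noise (over 21 pairs the chi-square per degree of freedom was 3.84 or more). The limma step was tested on simulated data. The rule for named clusters was VSM_3, VSM_5 and VSM_7 in each measure, other VSM clusters by count or as neighbours, and the clusters of all cells with at least 5% of a member. VSM_1 was described further after its values were seen, with VSM_2 and VSM_27 beside it. The members, lists and alternatives were chosen with earlier results of these data known. Alternatives were edgeR 4.0.16 on cell numbers, other added constants and transformations, filters, denominators, replicate terms, other phase calls, UMI bands, and leaving out each library; those on UMI bands, single phases, G2M score, all-cell clusters and the replicate sets were chosen after the data were seen.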

Additional observations from a re-analysis of the deposited data

Results flagged for a closer look

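Over 51 groups of at least 4 libraries, 3 single libraries stood apart from the others of their condition; chance alone flags about 1 group in 20. VSM_7 made 7.68% of the named cells of thermoneutral replicate 1, and the next highest thermoneutral library held 3.52%. In 2-day cold, cluster 9 of all cells, which holds most of VSM_3, made 3.47% of replicate 2, against 1.81% in the next library. In the same condition cluster 4, which holds most of VSM_5, made 1.07% of replicate 1, with the next lowest library at 3.45%. Replicate 1 of 2-day cold is the library without named cells, with a median mitochondrial share of 29.1% over all its cells.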

How the results depend on the processing

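Over 51 results, 971 of 1060 alternatives kept the direction and the side of the threshold, 27 lost a call, 17 gained one and 45 changed sign; where a value moved, the cause was not tested unless fewer samples or cells made it. Among shares of named cells, edgeR gave VSM_3 0.05 at room temperature against thermoneutral, and centred log ratios gave VSM_7 -0.25 there and -1.51 after 7 days (limma, adjusted p = 0.0223). With only the deeper cells (7085 UMIs or more, the median of named cells), VSM_5 was at 0.23 after 2 days and 0.17 after 7, VSM_7 at 0.29 and 1.32, and VSM_5 among VSM cells at 0.42. With the replicate sets as covariate VSM_5 was at 0.1 after 2 days. No label pairs the samples by replicate number. Between conditions, 12 of 21 same-number pairs correlated above 0.1 (-0.30 to 0.65), and 7 of 15 libraries correlated best with their own number. The median correlation was 0.22 for same-number pairs, 0.16 for other pairs of the same replicate set and -0.19 for pairs from different sets. The shares thus followed the replicate sets, and whether the number itself pairs the libraries was not tested. With a replicate block, phase calls after 2 days against thermoneutral were -0.02 in VSM_3 and -1.36 in VSM_5 (adjusted p = 0.00291), VSM_5 also passed between 2-day cold and room temperature (adjusted p = 0.00345 against 0.21 without the block, and 0.0145 with the replicate sets as covariate), VSM_3 UMIs were 0.86 (adjusted p = 0.0223), and no other call of the 3 clusters changed. Of the 27 named clusters 15 against 10 then passed between 7-day cold and thermoneutral, 8 against 2 between 7-day cold and room temperature, and 1 against 3 after 2 days. With the replicate sets as covariate the 2-day phase values were -0.11, -1.3 and -0.84, VSM_7 was at -0.86 between 7 and 2 days, and VSM_3 UMIs were at 0.86; all but the first passed (adjusted p = 0.0127, 0.0412, 0.0374 and 0.00700). G2M calls alone gave after 2 days -0.73, -1.48 and -1.33, after 7 days -1.27 in VSM_7, against room temperature -0.95 in VSM_7, and between 7 and 2 days -2.75 in VSM_5 and 0.06 in VSM_7; VSM_5 (adjusted p = 0.0273) and VSM_7 (0.0434) passed after 2 days and VSM_5 between 7 and 2 days (0.000447), and VSM_7 lost its calls. S calls alone gave 0.07 in VSM_7 after 2 days, -0.51, 0.2 and -0.75 after 7 days, -0.94, 0.48 and -0.54 against room temperature, and -0.97 and 0.47 in VSM_3 and VSM_5 between 7 and 2 days. The median G2M score of VSM_5 differed by -0.02 after 2 days. Phase calls of the table of all cells gave 1.22, -1.85 and -2.11 after 7 days, 1.22 and -1.92 in VSM_3 and VSM_7 against room temperature, and 0.09 in VSM_3 between 7 and 2 days. Cells of 10000 to 25000 UMIs gave VSM_3 -0.14 after 2 days and -1.18 between 7 and 2 days, and VSM_5 -0.74 after 7 days, -1.29 against room temperature and 0.76 between 7 and 2 days. Cells of 5000 to 15000 UMIs gave VSM_5 -0.71, -1.13 and 0.62, and VSM_7 -1.04 against room temperature. These values in the bands and the table of all cells are the ones that lost a call or changed sign. None of them after 7 days against thermoneutral or room temperature passed, and VSM_3 changed sign in the table of all cells. Other such fits kept their call (limma). VSM_3 did so among cells of 10000 to 25000 UMIs, against thermoneutral (-1.32) and room temperature (-1.35). VSM_7 did so among cells of 5000 to 15000 UMIs against thermoneutral (-1.56). VSM_5 did so in the table of all cells against room temperature (-2.64), with 0% of cells called in the 7-day libraries. The replicate-set difference of VSM_5 was -2.78 with 0.1 cells added (adjusted p = 0.0589), and that of VSM_3 among VSM cells -0.5 with edgeR (adjusted p = 0.0480). Without single libraries, named shares ranged, for VSM_3, VSM_5 and VSM_7, from -0.36 to 0.18, -2.28 to 0.03 and -0.06 to 0.45 at room temperature, and VSM_5 from -1.02 to 0.43 after 2 days. Shares of VSM cells after 7 days ranged from -0.65 to 0.58 for VSM_5 and -0.12 to 0.53 for VSM_7. Log2 ratios after 7 days ranged from -0.03 to 0.96 for VSM_3 over VSM_5 and -0.53 to 0.22 for VSM_5 over VSM_7. Phase calls ranged from -0.15 to 0.3 for VSM_3 after 2 days, -1.99 to -0.93 for VSM_5 after 7 days, -2.01 to -0.95 and -1.55 to -0.88 for VSM_5 and VSM_7 against room temperature, and -1.78 to -1.03, -0.82 to 0.24 and -1.26 to -0.59 between 7 and 2 days. UMIs of VSM_3 ranged from 0.69 to 1.08. The replicate-set difference ranged from -2.95 to -1.92 for VSM_5 among named cells and -0.72 to -0.45 for VSM_3 among VSM cells. After 7 days the phase values of VSM_5 and VSM_7 each rest on a pair of libraries.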
